A study of Rattus norvegicus with 21 samples.

Results

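The lowest dose of a water extract of Jakyakgamcho-tang (JGT), 4 µg/mL, was set against vehicle in PC12 cells by sequencing of messenger RNA. The comparison took the 3 libraries titled as low-dose water extract and the 3 titled as vehicle, which are 6 of the 21 libraries of the series. PC12 is a line from a rat adrenal pheochromocytoma, so all groups are 1 cell line and none is tissue. The labels call the cells neuronal and give the vehicle group its dose as an untreated sample. The sources used here do not give the time of exposure or what the vehicle was. The series also holds the water extract at 20 and 100 µg/mL and an ethanol extract at the same 3 doses, with 3 libraries for each.

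JGT is an East Asian formula of peony root and licorice root that has long been taken for muscle cramp and pain. Peony contributes monoterpene glycosides such as paeoniflorin, and licorice contributes the saponin glycyrrhizin and many flavonoids. Water draws out the more polar of these constituents. PC12 cells make and store catecholamines and extend neurites when given nerve growth factor, which is why they serve as a model of neurons. By its title, the series sought transcription factors that control the genes whose expression goes with JGT.

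Genes are given by Ensembl rat ID. The tables do not pair IDs with names, and 0 of the 32883 IDs matched a symbol in a RefSeq table of 47357 rat genes. Pathway and marker lists could therefore not be applied, the neuronal label was not checked against marker genes, and only 2 IDs that rose and 2 that fell are named. The labels do not state whether replicate libraries stem from separate cultures, so p-values measure only the spread between libraries, which may be technical. RNA came from whole cultures, where fewer cells that express a gene and less of its RNA per cell cannot be told apart.

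Expected counts summed to 19918513 to 23781470 per vehicle library and to 23462992 to 28420922 per low-dose library (exact two-sided permutation p = 0.2, where 3 against 3 cannot go below 0.1). Fragment length was 226.3 ± 6.37 bases in vehicle and 226.6 ± 2.90 bases at the low dose (SD, n = 3 each; exact permutation p = 0.9). The 10 most abundant genes took 7.76 ± 0.198% of counts in vehicle and 7.62 ± 0.316% at the low dose (SD, n = 3 each; exact permutation p = 0.7). Among the 12 vehicle and water libraries, a library deviated from the gene-wise median by 0.046 to 0.103 log2 units (median of absolute values). In every group, vehicle included, replicate 1 was the library that deviated most. Its values were 0.078 in vehicle and 0.0855, 0.0667 and 0.103 with 4, 20 and 100 µg/mL of water extract. Why replicate 1 stood out was not tested.

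Many genes differed by small amounts, in both directions, between the low-dose water extract libraries and the vehicle libraries. The test covered 12196 genes whose CPM, the count scaled for library size, averaged 1 or more across the 6 libraries. Of these, 721 (5.91%) were higher and 752 (6.17%) were lower than in vehicle, at a Benjamini-Hochberg adjusted p under 0.05 in the quasi-likelihood test of edgeR. The model held the 12 vehicle and water extract libraries. The median log2 change was 0.29 among the higher genes and -0.24 among the lower ones. Changes under 1.25-fold made up 433 of the higher and 554 of the lower genes. At least 1.5-fold was reached by 103 higher and 31 lower genes, and at least 2-fold by 23 higher and 3 lower genes. The vehicle mean was under 1 CPM in 21 of the higher genes, 8 of them among the 23, so these met the level filter only through the low-dose group, where they are high. The low-dose mean was under 1 CPM in 2 of the lower genes. The calls depended on the libraries in the model: with all 21, 28 genes were higher and 20 lower.

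ENSRNOG00000037563.3, a gene of 1241 bases with 1 annotated transcript, had the largest rise among genes that passed without overlap between groups. It stood at 0.953, 0.973 and 1.02 CPM in vehicle replicates 1, 2 and 3, and at 4.11, 1.98 and 2.52 CPM in low-dose replicates 1, 2 and 3. The vehicle libraries lay close together at 20 to 23 counts each, while low-dose replicate 1 was well above the other two with 115 counts. The log2 change was 1.55 ± 0.247 (SE), or 2.92-fold higher (edgeR adjusted p = 0.000609). Without low-dose replicate 1 it was 1.19 (edgeR adjusted p = 0.00375). The vehicle mean of 0.981 CPM was under the filter of 1 CPM, so the gene was tested only because of its level at the low dose.

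ENSRNOG00000019851.4 is a short gene of 475 bases with 1 annotated transcript. Its levels were 0.52, 1.27 and 1.17 CPM in the vehicle replicates and 2.54, 2.26 and 2.18 CPM in the low-dose replicates. Here the low-dose libraries were tight, and the lowest value of the set was that of vehicle replicate 1, which had 12 counts. The log2 change was 1.24 ± 0.231 (SE), or 2.37-fold higher (edgeR adjusted p = 0.00174). With all 21 libraries in the model the log2 change was again 1.24, and the call was lost (edgeR adjusted p = 0.124). This gene, too, met the level filter only through the low-dose group, with a vehicle mean of 0.986 CPM.

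ENSRNOG00000010459.5, of 2525 bases with 1 annotated transcript, had the largest fall among genes that passed without overlap. It stood at 3.38, 4.19 and 4.98 CPM in the vehicle replicates and at 1.11, 2.12 and 2.22 CPM in the low-dose replicates. Low-dose replicate 1 was again the most distant from vehicle, with 31 counts against 52 and 61 in the other two. The log2 change was -1.21 ± 0.21 (SE), or 2.31-fold lower (edgeR adjusted p = 0.0012).

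ENSRNOG00000047396.2, of 1854 bases with 1 annotated transcript, stood at 13.9, 12.4 and 16.5 CPM in the vehicle replicates and at 5.01, 7.57 and 6.66 CPM in the low-dose replicates. Every low-dose library was well under every vehicle library. The naming rule required that the groups not overlap, in either direction, for all 4 genes. The log2 change was -1.15 ± 0.214 (SE), or 2.22-fold lower (edgeR adjusted p = 0.00769). Its expected counts were not whole in all 12 libraries, which occurs when RSEM divides reads between genes of similar sequence, so its level is uncertain. Its call was lost at log2 changes of -1.01 without replicate 1 of both groups (edgeR adjusted p = 0.0825), -1.06 without replicate 3 of both groups (edgeR adjusted p = 0.0704) and -1.15 with all 21 libraries (edgeR adjusted p = 0.128).

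On the scale of TPM, the deposited abundance per unit of transcript length, ENSRNOG00000047396.2 was the most abundant of the 4 in vehicle at 11.4 ± 1.52 TPM (SD, n = 3). ENSRNOG00000019851.4 followed at 5.12 ± 2.07 TPM (SD, n = 3). ENSRNOG00000010459.5 stood at 2.35 ± 0.395 TPM and ENSRNOG00000037563.3 at 1.25 ± 0.0252 TPM (SD, n = 3 each). All 4 were thus genes of low or modest level. At the low dose the TPM values were 5.12 ± 0.956, 12.2 ± 1.103, 1.02 ± 0.333 and 3.7 ± 1.49 in the same order (SD, n = 3 each), so ENSRNOG00000019851.4 was then above ENSRNOG00000047396.2.

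**Figure D1:**
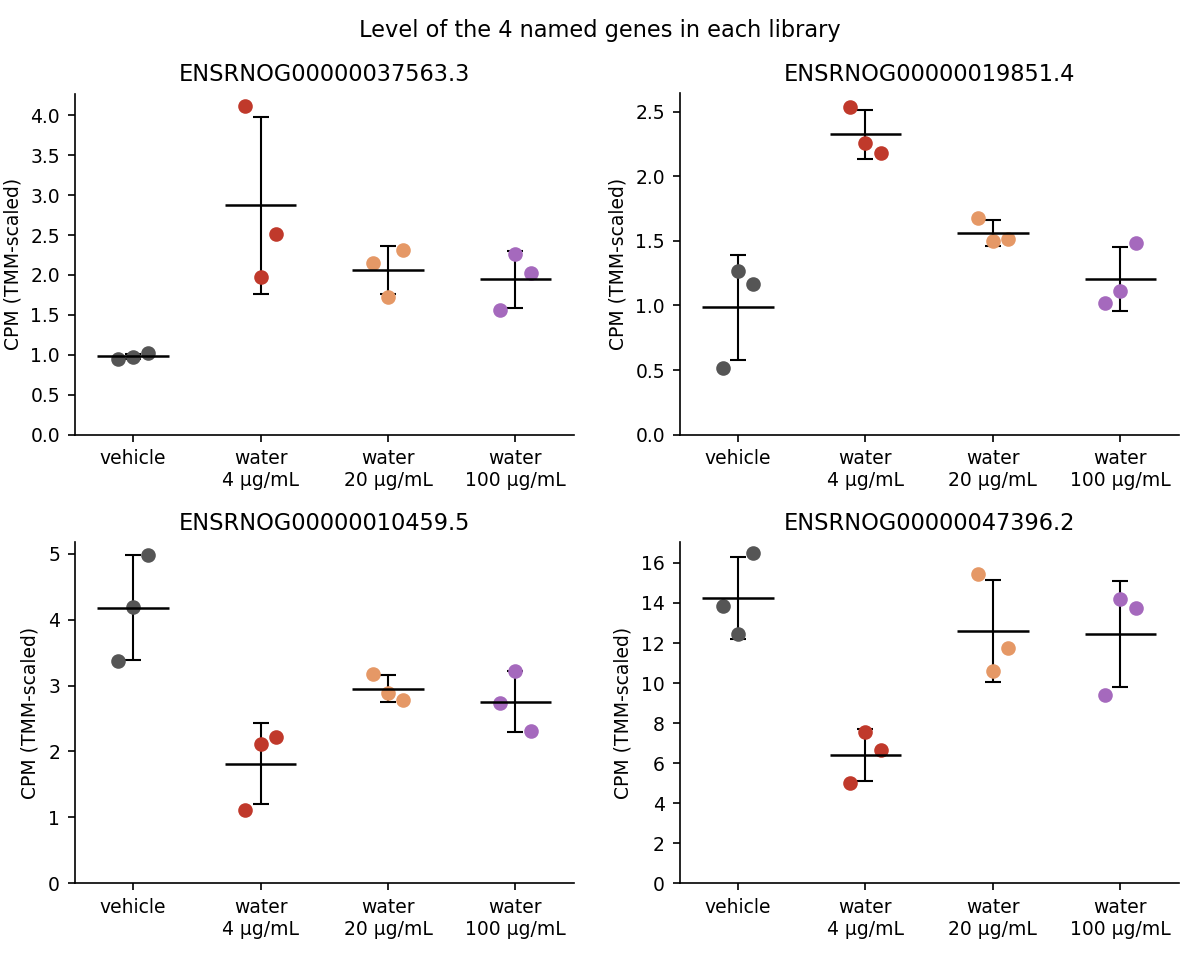
CPM in each of the 12 vehicle and water extract libraries for the 4 named genes, with 1 panel per gene and dose groups on the horizontal axis. Points are libraries, and bars are the mean ± SD of 3. In each panel the low-dose points lie wholly above or wholly below the vehicle points, as the naming rule required.

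The 10 next genes by size of rise, under the same conditions, had log2 changes of 1.06 to 1.21. Their group means were 0.782 to 8.61 CPM in vehicle and 1.71 to 19.6 CPM at the low dose, with adjusted p of 4.73e-05 to 0.029 by edgeR. The lowest of these vehicle means was under the filter of 1 CPM, so that gene was tested only through its level at the low dose. How many of the 10 met the filter only in this way was not counted. In all 10 the highest of the low-dose libraries was replicate 1. The 10 next genes by size of fall had log2 changes of -1.12 to -0.73, with 1.75 to 83.7 CPM in vehicle and 0.996 to 50.1 CPM at the low dose. The lowest of these low-dose means was under 1 CPM, so that gene met the filter only through vehicle. Replicate 1 was the lowest low-dose library in 7 of these 10.

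Not every gene with a fitted change of at least 2-fold passed the test. There were 50 such genes among those tested, of which 26 passed and 24 did not. All 24 that did not pass had counts that were not whole in at least 1 of the 6 libraries, against 7 of the 26 that passed and 14.5% of all genes tested. In 14 of the 24 at least 1 library had no count, while none of the 26 had such a library. The 9 largest fitted changes of the comparison were all among the genes that did not pass.

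**Figure D2:**
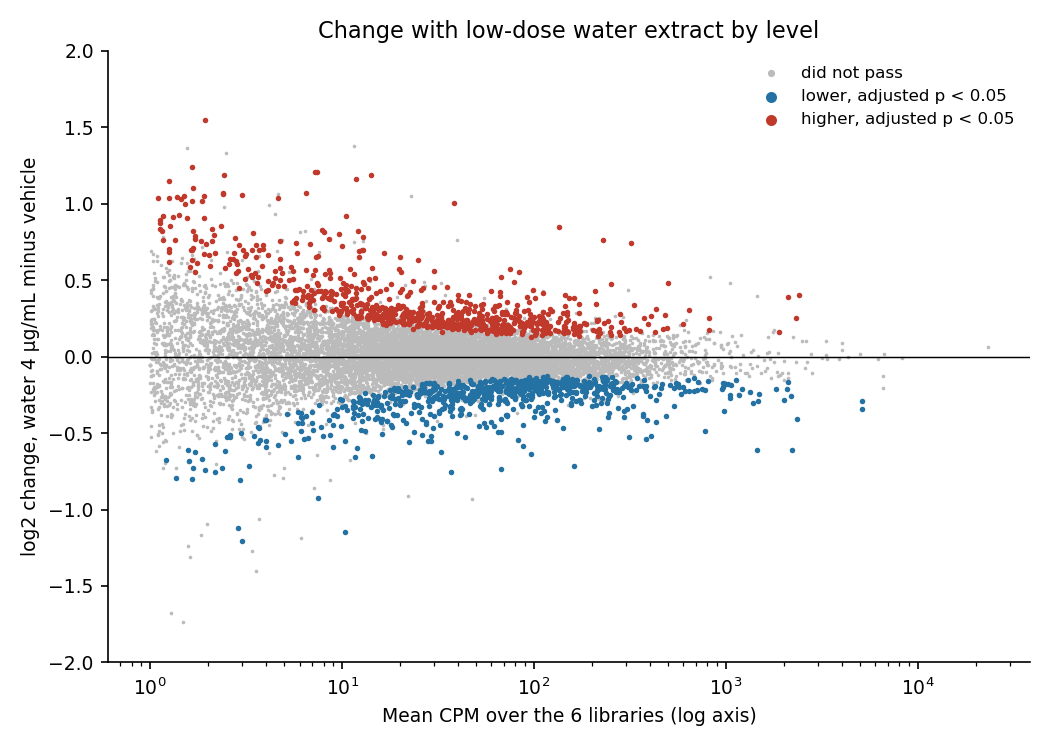
Log2 change (water extract 4 µg/mL minus vehicle) against the mean CPM over the 6 libraries on a log axis, with 1 point per gene. Red points passed as higher (721) and blue points as lower (752). A further 9 genes with changes over 2 log2 units, none of which passed, lie outside the axis. The large red changes sit at low CPM, and blue points are more frequent than red ones at high CPM.

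Higher and lower genes differed in their usual level. The median vehicle level was 23.3 CPM for the higher genes, 71.6 CPM for the lower genes and 29.4 CPM for all genes tested. The share of genes called higher was much the same at every level, from 5.17 to 6.8%. The share called lower climbed from 1.71% of the 1173 genes under 3 CPM to 12.1% of the 2203 genes at 100 CPM or more. The median standard error of a log2 change was 0.196 in the first of these level classes and 0.0496 in the last. The median log2 change over all genes was 0.075 in the first class and -0.031 in the last. The part of precision, or of this shift over all genes, in the share called lower was not tested. As a description of genes chosen by this contrast, the lower genes together held 13.2 ± 0.307% of counts in vehicle and 11 ± 0.379% at the low dose (SD, n = 3 each). The higher genes held 4.5 ± 0.0807% in vehicle and 5.41 ± 0.212% at the low dose (SD, n = 3 each).

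Gene length differed between the directions as well. The median was 2148 bases for the higher genes, 2823 bases for the lower genes and 2220 bases for all genes tested. Of the 211 genes of at least 8000 bases, 29 (13.7%) were lower and 8 (3.79%) were higher. Of the 3964 genes of 1000 to 2000 bases, 176 (4.44%) were lower and 272 (6.86%) were higher. Over all genes tested, 6.17% were lower and 5.91% higher. The median standard error of a log2 change was 0.0718 in the shorter of these classes and 0.0566 in the longer. The median log2 change over all genes was 0.016 in the class of 1000 to 2000 bases and -0.064 in the class of at least 8000 bases. With the fragment length of each library as a covariate, 706 genes were higher and 745 lower. With effective length as an offset these were 659 and 677. These totals were not split by gene length.

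**Figure D3:**
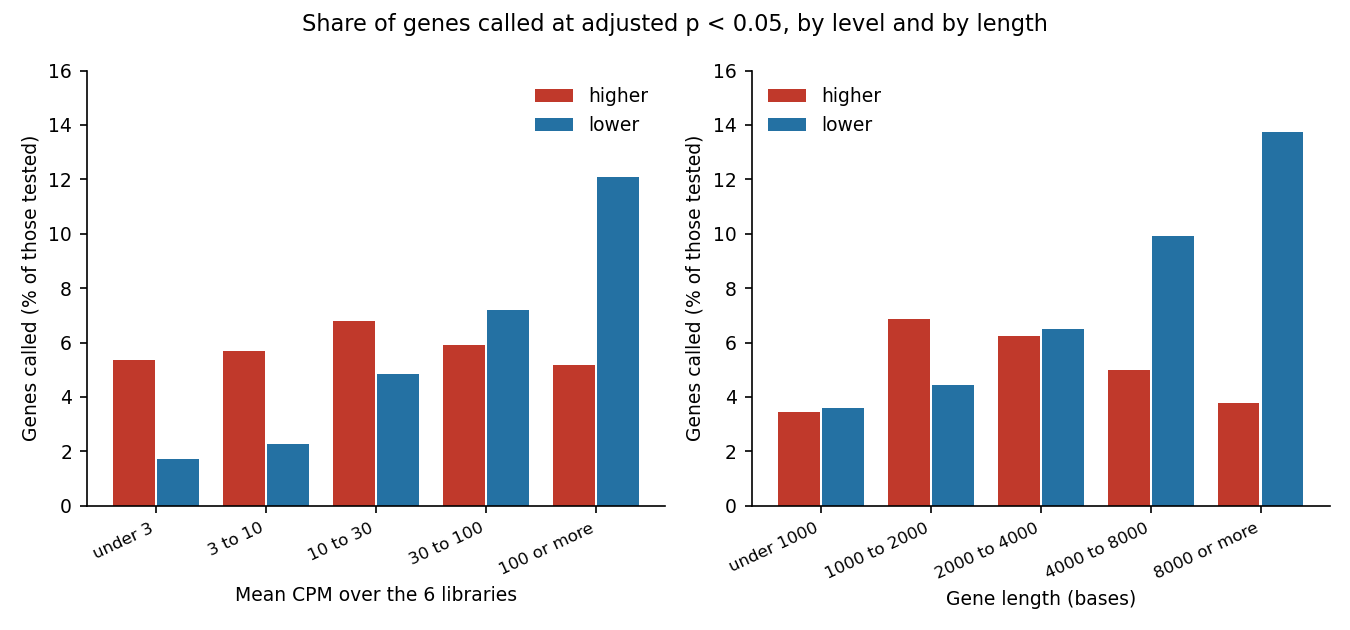
Share of genes called higher (red) and lower (blue) at the low dose, in percent of those tested, by mean CPM (left) and by gene length in bases (right). The blue bars rise to 12.1% in the highest level class and 13.7% in the longest length class, while the red bars stay between 3.45 and 6.86% in both panels.

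The mix of transcripts was read in part from the deposited gene length, which RSEM averages over a gene's transcripts by their abundance. A switch between transcripts of like length leaves this value the same and cannot be seen here. Among 3635 tested genes with more than 1 annotated transcript, 3373 had a length that varied between libraries. Of these, 0 differed between low dose and vehicle by limma at an adjusted p under 0.05, with 206 (6.11%) at an unadjusted p under 0.05 and a smallest adjusted p of 0.698. The median absolute log2 change in this length was 0.00546, and it was above 10% in 54 genes. Of the same 3373 genes, 455 (13.5%) passed as changed in level in the edgeR fit of counts, against 12.1% of all genes tested. Length and level were tested by different methods, so the 0 and the 455 cannot be compared.

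Groups did not overlap for 3925 of the 12196 genes (32.2%). Low dose was above vehicle in 1939 (15.9%) and below it in 1986 (16.3%). Of the genes that passed, 707 of 721 and 739 of 752 were free of overlap, and at an unadjusted p under 0.05 there were 3293 genes (27%).

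Low-dose replicate 1 was the most distant from vehicle for most of the genes that passed. It was the highest of the 3 low-dose libraries in 470 of the 721 higher genes and the lowest in 501 of the 752 lower genes. Over all genes tested it was the highest in 4273 and the lowest in 4420 of 12196. The median log2 distance from the vehicle mean over the higher genes was 0.34, 0.27 and 0.26 in low-dose replicates 1, 2 and 3, and over the lower genes it was -0.29, -0.23 and -0.21. These genes were called from the same libraries, so the shared sign of the medians follows from the choice of genes. Without it, 313 genes were higher and 330 lower, of which 309 and 324 were among the original calls. Without vehicle replicate 3 the counts were 362 and 394, and without vehicle replicate 1 they were 444 and 460.

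**Figure D4:**
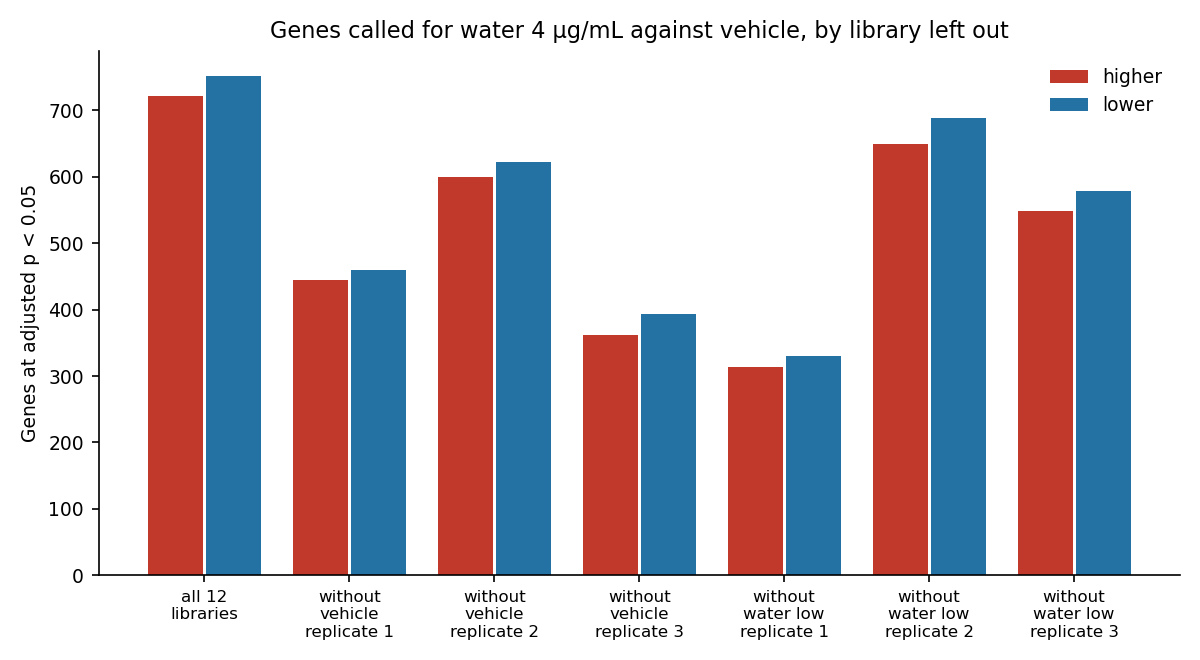
Number of genes that passed as higher (red) and lower (blue) with all 12 libraries and with 1 vehicle or low-dose library left out. The counts fall furthest, from 721 and 752 to 313 and 330, without low-dose replicate 1, and both directions fall by like amounts in each case.

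Calls were then made without 1 vehicle and 1 low-dose library of the same number, and read in the libraries left out. The level filter still used all 6 libraries, so those left out helped to choose the genes tested. Replicate 1 of both groups was left out, 165 higher and 176 lower genes were called from the rest, and the difference between the left-out libraries was taken. It was positive for 159 of the 165 (96.4%) and negative for 173 of the 176 (98.3%), where 49.3% of all genes were positive. The median log2 difference of that pair was 0.43 over the higher genes, against 0.4 in the fit that called them, and -0.4 over the lower genes, against -0.33. With replicate 2 left out the direction was the same for 468 of 511 higher genes (91.6%) and 528 of 568 lower genes (93%). The median log2 difference over the higher genes was then 0.2 against 0.37 in the fit, and over the lower genes -0.16 against -0.31. With replicate 3 left out the direction was the same for 232 of 237 (97.9%) and 277 of 279 (99.3%). The median log2 differences of this pair were 0.33 against 0.41 in the fit over the higher genes and -0.26 against -0.33 over the lower genes. These calls set 2 low-dose against 2 vehicle libraries, in a model that kept all medium- and high-dose libraries. The left-out libraries were read on a scale set with all 12 libraries. The pairs are libraries of the same number, with no other link given. If libraries of a group come from the same culture, a left-out library is not independent of those that made the calls.

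The number of genes called differed between sets of libraries in the model. With all 21 libraries in the model, 28 genes were higher and 20 lower, all of them among the 1473. With 3 ethanol libraries taken out of that model, 743 were higher and 738 lower. Those 3 were replicate 1 at 4 µg/mL and replicates 2 and 3 at 20 µg/mL. Earlier results of these data had set them apart, and no test of this was made here. With only the 6 libraries compared, 805 were higher and 827 lower, and 690 and 707 of the original genes were among them. No gene of the 1473 changed direction under any of these settings.

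The same genes were followed to the other doses of water extract. All 3 doses share the vehicle libraries, and the genes were chosen at the low dose, so the values are given side by side as a description. The 721 higher genes had a median log2 change of 0.29 at 4 µg/mL, 0.14 at 20 µg/mL and 0.18 at 100 µg/mL. The 752 lower genes had medians of -0.24, -0.11 and -0.16 at these doses. Over all genes tested the medians were -0.00084, -0.0015 and 0.0025.

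**Figure D5:**
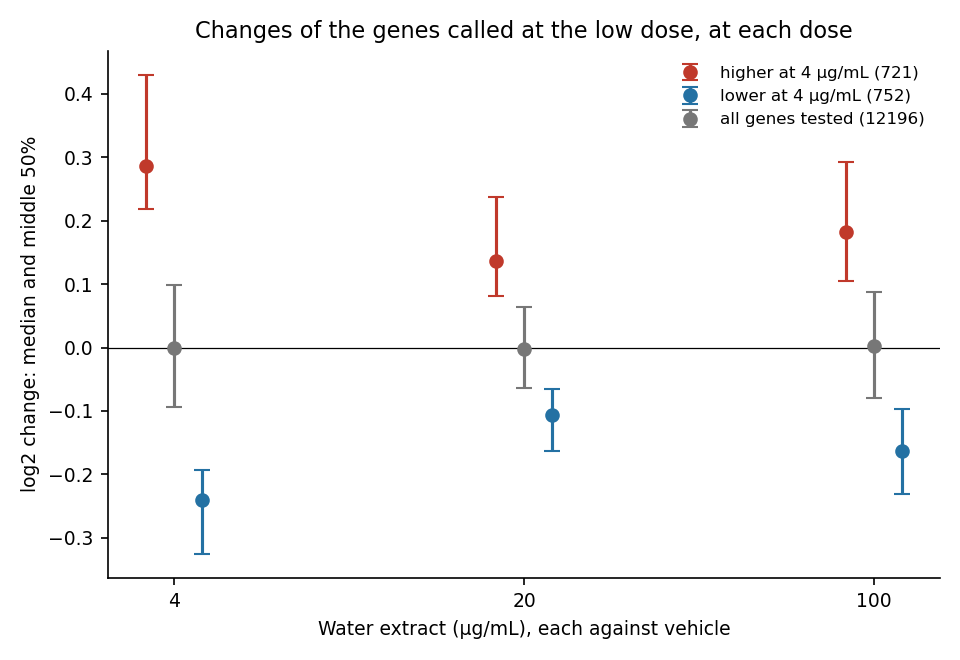
Log2 change against vehicle (median, with bars for the middle 50% of genes) at each water extract dose, for genes called higher (red) or lower (blue) at 4 µg/mL and for all genes tested (grey). The red and blue medians lie farthest from 0 at 4 µg/mL, the dose that chose the genes, and stay on the same side at 20 and 100 µg/mL.

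The low dose was also compared with the higher doses directly, without vehicle. Against 20 µg/mL, edgeR called 60 genes (0.492%) with higher and 86 (0.705%) with lower levels at the low dose, with a median absolute log2 difference of 0.3. Called anew, the total went from 146 genes to 6, 76 and 117 without low-dose replicates 1, 2 and 3. It was 0 without medium-dose replicate 1 (1380 at an unadjusted p under 0.05 by edgeR), 58 without replicate 2 and 69 without replicate 3. Against 100 µg/mL, edgeR called 18 genes (0.148%) with higher and 37 (0.303%) with lower levels at the low dose. Called anew, the total went from 55 genes to 7, 253 and 14 without low-dose replicates 1, 2 and 3. It was 12, 18 and 105 without high-dose replicates 1, 2 and 3. All 55 were among the 253, and 45 of them were among the 105.

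None of the 4 named genes passed in these direct comparisons. ENSRNOG00000019851.4 was at 1.56 ± 0.0988 CPM at 20 µg/mL and 1.21 ± 0.247 CPM at 100 µg/mL (SD, n = 3 each). On the log2 scale the low dose was above the high dose by 0.94 ± 0.222 (SE), with an edgeR adjusted p of 0.0628. ENSRNOG00000047396.2 stood at 12.6 ± 2.53 and 12.4 ± 2.66 CPM at the higher doses (SD, n = 3 each), nearer to the 14.3 ± 2.05 CPM of vehicle than to the 6.41 ± 1.299 CPM of the low dose. Between low and medium dose it differed by -0.97 ± 0.214 log2 units (SE), with an edgeR adjusted p of 0.0659. ENSRNOG00000037563.3 was at 2.06 ± 0.304 and 1.95 ± 0.359 CPM at 20 and 100 µg/mL (SD, n = 3 each), against 2.87 ± 1.11 CPM at the low dose. Of the 4 genes it was the only one that also passed at 100 µg/mL against vehicle. Its log2 change there was 1.0025 ± 0.26 (SE), with an edgeR adjusted p of 0.0308. At that dose 2.29% of all genes tested passed as higher, as did 171 of the 721 genes called higher at the low dose. Both contrasts use the same vehicle libraries, so passing at 100 µg/mL is not independent of the choice of the gene. ENSRNOG00000010459.5 was at 2.95 ± 0.206 and 2.76 ± 0.458 CPM (SD, n = 3 each), between the 1.82 ± 0.614 CPM of the low dose and the 4.18 ± 0.802 CPM of vehicle.

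In the 9 ethanol extract libraries, ENSRNOG00000037563.3 ranged from 1.75 to 4.45 CPM with a median of 2.85 CPM, above all 3 vehicle libraries. ENSRNOG00000010459.5 ranged from 1.39 to 3.33 CPM with a median of 2.82 CPM, below all 3 vehicle libraries. ENSRNOG00000019851.4 ranged from 0.65 to 2.63 CPM and ENSRNOG00000047396.2 from 7.48 to 27.9 CPM, both overlapping vehicle. These values were scaled over 21 libraries and include the 3 ethanol libraries that earlier results had set apart. The 4 genes were chosen for their distance from the same 3 vehicle libraries, which favours other libraries lying on that side. The share of all genes with ethanol libraries wholly above or below vehicle was not counted.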

How the data were processed

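Messenger RNA libraries of PC12 cells were made with a directional kit, per the labels' protocols. The authors deposited, per gene and library, expected counts, TPM and an abundance-weighted and an effective length in bases, as RSEM writes them per the file headers. The submitters' processing notes name RSEM 1.3.3. Genome build, annotation and strandedness of counting are not given in the sources used here.

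Expected counts were rounded. Genes were kept where their CPM averaged 1 or more across the 6 libraries (12196 of 32883, holding 99.9% of counts). edgeR 4.0.16 in R 4.3.3 (TMM, robust quasi-likelihood fit) was fitted with 1 coefficient for each of the 4 vehicle and water groups (12 libraries). Adjusted p-values are Benjamini-Hochberg over all genes tested. SE is the absolute log2 change over the square root of F. CPM values are TMM-scaled. log2 CPM used a prior count of 2. Abundance-weighted lengths were tested as log2 values with limma 3.58.1, a test added after the data were seen. Fragment length was taken as length minus effective length (median across genes from 1000 bases up). Counts were called not whole beyond 0.001. The fitting steps were run on simulated counts and lengths with known changes. The simulated libraries were independent, so this does not bear on technical replicates or on reads divided between genes.

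Named genes were those with adjusted p under 0.05, no overlap between groups and the largest change, 2 in each direction, among 707 higher and 739 lower genes. The members, lists, rule and libraries of the model were chosen with earlier results of these data known. Replicate numbers were not used to pair the samples in the main model. Deviations of same-numbered vehicle and low-dose libraries correlated at 0.032, -0.0098 and 0.16, which does not show that replicates share no structure. Libraries of a group differed beyond sampling noise (chi-square per degree of freedom 3.15 to 9.28). Alternatives were DESeq2 1.42.0, its size factors in edgeR, limma-voom with and without library weights, other filters, length and fragment terms, a replicate block, other sets of libraries and leaving out libraries.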

Additional observations from a re-analysis of the deposited data

How the results depend on the processing

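Against vehicle, the 721 higher and 752 lower genes stayed within 1.5 times under 11 of the 12 alternatives that kept all compared libraries, from 637 to 869 and from 677 to 907. The exception was the model of all 21 libraries, with 28 and 20. Leaving out libraries gave 165 to 650 higher and 176 to 688 lower genes, with the lowest values where replicate 1 of both groups was left out, an alternative added after seeing the data. With the replicate block they were 800 and 877. Between low and medium dose the main model called 146 genes. The count was 243 with DESeq2, 93 with limma-voom, 70 with the fragment length covariate and 199 with the replicate block. It was 0 with 21 libraries by edgeR (433 at an unadjusted p under 0.05) and 0 to 117 without single libraries. Between low and high dose the main model called 55 genes. The count was 195 with DESeq2, 10 with limma-voom, 136 with no filter on low counts and 75 with the replicate block. It was 0 with 21 libraries by edgeR (455 at an unadjusted p under 0.05) and 7 to 253 without single libraries. The cause of these moves was not tested. The block ended no call of a named gene. With 21 libraries ENSRNOG00000019851.4 and ENSRNOG00000047396.2 missed the threshold, with edgeR adjusted p of 0.124 and 0.128. Across settings the adjusted p spanned 1.3e-05 to 0.0199 for ENSRNOG00000037563.3, 0.000195 to 0.124 for ENSRNOG00000019851.4, 1.96e-05 to 0.0381 for ENSRNOG00000010459.5 and 3.46e-05 to 0.128 for ENSRNOG00000047396.2. With only 6 libraries the comparisons between doses have no value.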

Other observations

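Among all 32883 genes, 46 had no count, after rounding, in any vehicle library and at least 1 count in each low-dose library, and 18 had the reverse pattern. The low-dose libraries held more counts in total. The median summed count of these genes was 4 in either set. All but 1 of the 46, and all of the 18, were under the level needed for the test. The 1 exception had 977 counts in all at the low dose and did not pass.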
